A study of Mus musculus with 6 samples.

Results

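The interleukin-6 (IL-6) family was followed through chronic stroke infarcts by 10 genes picked by name from the 46078 genes counted in each library. The genes were not ranked by their values, but earlier results of these data were known when they were chosen. They are the ligands *Il6*, *Osm*, *Lif* and *Clcf1*, the receptor genes *Il6st*, *Il6ra*, *Osmr*, *Lifr* and *Il11ra1*, and the feedback inhibitor *Socs3*. RNA-Seq libraries came from 3 infarcts and 3 contralateral cortices of wild type male C57BL/6J mice aged 3 months, at 7 weeks after DH stroke, in which the right middle cerebral artery is permanently cauterized and the mouse is then kept in low oxygen. Both regions came from brains with a stroke, so the contralateral cortex is the intact side of an injured brain and not the cortex of a mouse without surgery. Each library was made from dissected tissue that holds all of its cell types. The libraries of each region are numbered 1 to 3 in the sample records, which do not say which infarct and which cortex shared a mouse or that the pieces came from separate mice, so *p* values measure the spread between these tissue samples.

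Cytokines of this family share a signaling chain. The receptor subunit gp130, encoded by *Il6st*, is used by all of these ligands, and the partner of gp130 decides which ligand a cell can answer. IL-6 and interleukin-11 first bind a receptor of their own (IL6RA and IL11RA1) that does not signal by itself, leukemia inhibitory factor (LIF) joins gp130 to LIFR, and oncostatin M (OSM) joins gp130 to OSMR. Kinases of the JAK family bound to gp130 then activate the transcription factor STAT3, and one gene that STAT3 switches on, *Socs3*, encodes a protein that binds gp130 and shuts the signal down. In the injured brain the family is best known for driving astrocyte reactivity and for acute phase proteins.

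Of the 10 genes, 9 had enough counts to be tested, and 8 of these rose in infarcts, where a call needed more than a 2-fold change and an adjusted *p* under 0.05 (quasi-likelihood test of edgeR, Benjamini-Hochberg adjusted over 15554 genes). Across all tested genes, 25.7% were called higher and 20.9% were called lower in infarcts. *Osmr* and *Socs3* had the largest fold changes among the genes detected in both regions, *Osm* was read in infarcts only, and *Il6* stayed at the limit of detection. *Lifr* was the 1 gene of these 9 with a lower level in infarcts, by less than 2-fold, and it was not called. The median log2 fold change of the 9 tested genes was 2.76, against 0.03 for all tested genes. The infarct and contralateral libraries did not overlap for any of the 9 genes, but the same held for 72.3% of all tested genes, so the lack of overlap is not particular to the family. Of these 9, *Osm*, *Lif* and *Clcf1* were too low in contralateral cortices to pass the count filter there. They were tested only because of their infarct counts, which favored a call of higher, and they enter these counts and the median.

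Counts on genes ranged from 12146959 to 13427057 in infarcts and from 11943570 to 19933962 in contralateral cortices. Levels are given as CPM, which are counts scaled to library size and composition, and 3 counts, the upper limit that a count of 0 allows, correspond to 0.204 to 0.239 CPM in infarcts and 0.156 to 0.276 CPM in contralateral cortices, with counting error only. Log2 CPM correlated at 0.957 to 0.973 between infarcts and at 0.985 to 0.988 between contralateral cortices (Pearson's r across genes, which are not independent replicates), so the contralateral libraries were more alike. Against the tissue labels, all 8 neuron markers fell in infarcts, from a summed level of 9230 to 10050 CPM to one of 657.4 to 1711 CPM, with infarct 3 highest, and none was at 0. In such bulk samples, fewer cells of a type and less RNA per cell cannot be told apart.

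**Figure D1:**
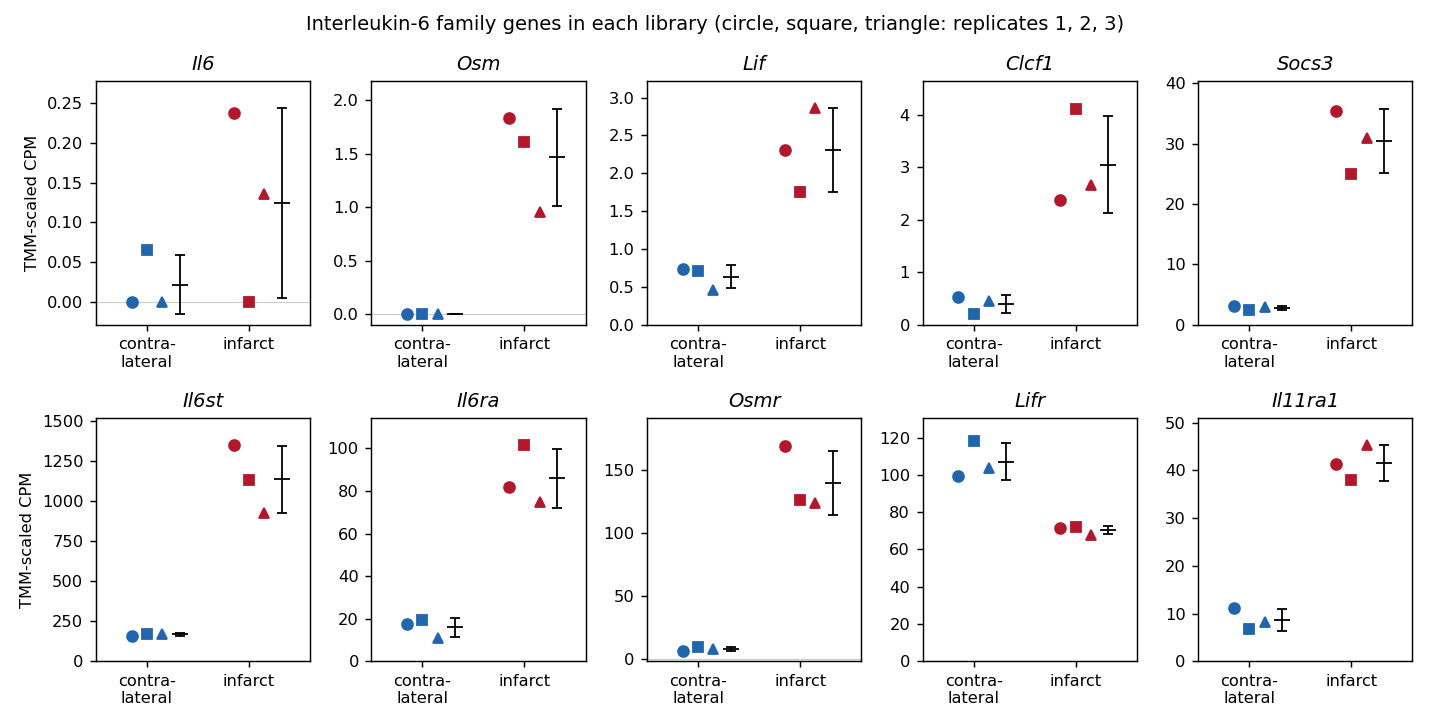
Level of each of the 10 genes in CPM (linear axes, a separate scale for each gene) in the 3 contralateral (blue) and 3 infarct (red) libraries. Circles, squares and triangles are replicates 1, 2 and 3, horizontal lines are means and bars are SD. The infarct points of the 7 called genes other than *Osm* lie above all contralateral points, *Osm* has all contralateral points at 0, *Lifr* has its infarct points below, and *Il6* is near 0 throughout.

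Among the ligands, *Il6* itself was barely detected. IL-6 is the founding member of the family and an inducer of the acute phase response (*Il6*, ENSMUSG00000025746, chr5:30013114-30019981, plus strand of GRCm38). The files held 3, 0 and 2 *Il6* counts in infarcts 1, 2 and 3 and 0, 1 and 0 counts in contralateral cortices 1, 2 and 3. These counts correspond to 0.125 ± 0.120 CPM (SD, n = 3) in infarcts and 0.0217 ± 0.0375 CPM (n = 3) in contralateral cortices. Every library was at or under 3 counts, the regions overlapped, and a difference was not detectable at this depth. Without a filter on low counts, the adjusted *p* of edgeR's quasi-likelihood test for *Il6* was 0.333.

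*Osm* was read in every infarct and in no contralateral cortex. Oncostatin M is made mainly by leukocytes (*Osm*, ENSMUSG00000058755, chr11:4236420-4241026, plus strand). Infarcts 1, 2 and 3 had 23, 22 and 14 counts of *Osm*, and each contralateral cortex had 0. The infarct level was 1.47 ± 0.456 CPM (SD, n = 3), at least 7.00-fold higher than the level that 3 counts in each contralateral library would give (adjusted *p* = 3.47e-04, edgeR's quasi-likelihood test). Infarct 3 was the lowest of the infarcts and still held 14 counts.

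*Lif* and *Clcf1* rose from low levels. LIF supports stem cells and neurons and stimulates astrocytes (*Lif*, ENSMUSG00000034394, chr11:4257557-4272514, plus strand). *Lif* was at 2.31, 1.76 and 2.86 CPM in infarcts 1, 2 and 3 and at 0.73, 0.715 and 0.461 CPM in contralateral cortices 1, 2 and 3. The lowest infarct was above the highest contralateral cortex, and the log2 fold change was 1.82 ± 0.41 (SE; adjusted *p* = 2.72e-03, edgeR's quasi-likelihood test). CLCF1 is a ligand of the ciliary neurotrophic factor receptor (*Clcf1*, ENSMUSG00000040663, chr19:4214238-4223490, plus strand). Its transcript was at 2.39, 4.11 and 2.66 CPM in infarcts against 0.521, 0.195 and 0.461 CPM in contralateral cortices, and here too the regions were apart. The log2 fold change of *Clcf1* was 2.93 ± 0.49 (SE; adjusted *p* = 3.91e-04, same test). Of the *Clcf1* exon bases, 8.17% lie in exons of a predicted gene on the same strand. *Osm* and *Lif* lie on the same strand of chromosome 11, 16530 bases apart with 0 annotated genes between them.

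The 4 ligands together made up a small pool next to their receptors. Their summed level was 6.76, 7.48 and 6.61 CPM in infarcts 1, 2 and 3 and 1.25, 0.975 and 0.921 CPM in contralateral cortices 1, 2 and 3. The summed level of the 5 receptor genes was 1710.0, 1465 and 1239 CPM in infarcts against 292.5, 326.5 and 303.3 CPM in contralateral cortices. CPM does not correct for gene length, so levels of different genes are compared below only as CPM per kilobase of exon, with all annotated exons of a gene counted once.

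*Il6st*, the gene for the shared subunit gp130, was the most abundant gene of the family in both regions and rose in infarcts (ENSMUSG00000021756, chr13:112464070-112510086, plus strand). It was at 1347, 1128 and 927.6 CPM in infarcts 1, 2 and 3 and at 158.3, 172.8 and 172.6 CPM in contralateral cortices 1, 2 and 3. Every infarct was far above every contralateral cortex, infarct 1 was highest, and the contralateral cortices lay close together. The mean was 1134 ± 209.9 CPM in infarcts against 168 ± 8.32 CPM in contralateral cortices (SD, n = 3 each). The log2 fold change was 2.76 ± 0.18 (SE; 95% interval 2.36 to 3.15; adjusted *p* = 1.55e-06, edgeR's quasi-likelihood test).

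*Osmr*, which encodes the signaling partner of gp130 for oncostatin M, had the largest log2 fold change of the 5 receptor genes (ENSMUSG00000022146, chr15:6813577-6874969, minus strand). Its level was 168.9, 126.1 and 124 CPM in infarcts 1, 2 and 3 and 6.36, 9.29 and 7.65 CPM in contralateral cortices 1, 2 and 3. The lowest infarct was thus more than 10 times the highest contralateral cortex. The means were 139.7 ± 25.3 and 7.77 ± 1.47 CPM (SD, n = 3 each), 18.0-fold apart in the fit (log2 fold change 4.17 ± 0.19 SE; 95% interval 3.74 to 4.60; adjusted *p* = 3.37e-07, edgeR's quasi-likelihood test).

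*Lifr*, the LIF receptor subunit and the neighbor of *Osmr* on chromosome 15, was lower in infarcts (ENSMUSG00000054263, chr15:7090614-7197489, plus strand). The genes lie 215644 bases apart on opposite strands with 1 annotated gene between them. *Lifr* was at 71.2, 72.2 and 67.7 CPM in infarcts against 99.2, 118 and 104 CPM in contralateral cortices. All infarcts were below all contralateral cortices, and the infarcts differed little among themselves (70.4 ± 2.36 against 107 ± 10.1 CPM; SD, n = 3 each). The log2 fold change was -0.61 ± 0.13 (SE; 95% interval -0.91 to -0.31) with an adjusted *p* of 2.85e-03 (edgeR's quasi-likelihood test), so the gene missed the call through its size, not through its *p*. With libraries scaled by their totals, the median of all genes moved from 0.03 to 0.23 and the value of *Lifr* to -0.40.

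The genes for the ligand-binding receptors of IL-6 and interleukin-11 both rose. *Il6ra* (ENSMUSG00000027947, chr3:89864059-89913196, minus strand) was at 81.7, 101 and 74.7 CPM in infarcts against 17.6, 19.3 and 11.1 CPM in contralateral cortices, where cortex 3 was lowest. The regions did not overlap, and the log2 fold change was 2.42 ± 0.22 (SE; adjusted *p* = 1.23e-05, edgeR's quasi-likelihood test). *Il11ra1* (ENSMUSG00000073889, chr4:41699989-41769474, plus strand) was at 41.4, 37.9 and 45.3 CPM in infarcts against 11.1, 6.70 and 8.20 CPM in contralateral cortices. Its infarct libraries were all above its contralateral libraries, with a log2 fold change of 2.25 ± 0.21 (SE; adjusted *p* = 1.23e-05, same test). The value of *Il11ra1* is uncertain in level, since reads that fit it and its near-identical copy *Il11ra2* equally well are not counted on either gene. The *Il11ra2* entry on chromosome 4 had 1 count in infarct 1 and 0 counts in the other libraries. Further annotated *Il11ra2* entries on separate scaffolds were not tabulated.

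**Figure D2:**
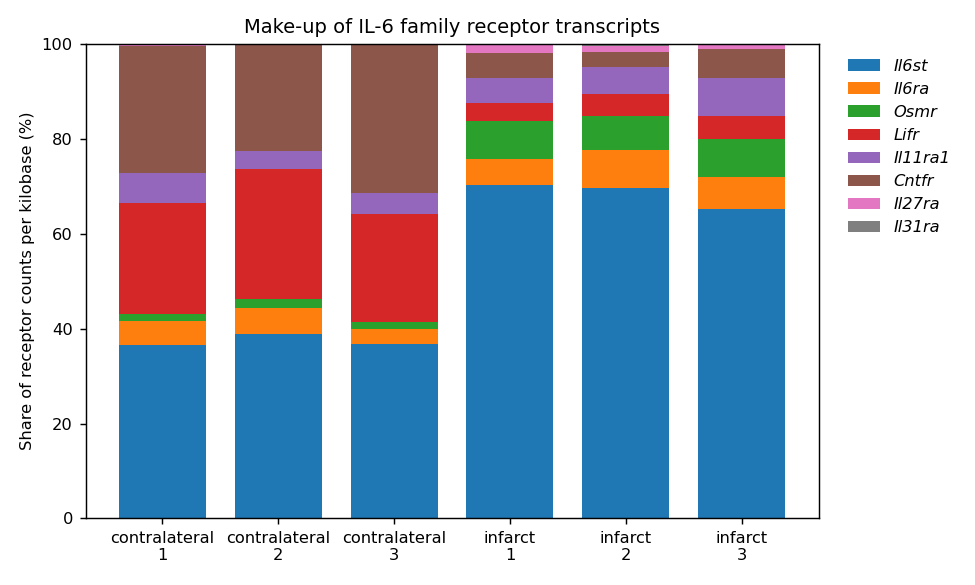
Make-up of the receptor transcripts of the family in each library, as the percent of the summed counts per kilobase of 8 receptor genes (linear axis). In infarcts *Il6st* takes 65.2 to 70.2%, and *Lifr* and *Cntfr* together take less than in the contralateral cortices, where *Lifr* alone takes 22.8 to 27.4%.

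The make-up of the receptor pool differed between regions. Over 8 receptor genes of the family, which are the 5 above with *Cntfr* (the receptor for ciliary neurotrophic factor), *Il27ra* and *Il31ra*, *Il6st* took 68.4 ± 2.74% of the counts per kilobase in infarcts and 37.4 ± 1.24% in contralateral cortices (SD, n = 3 each). The share of *Osmr* was 7.73 ± 0.515% in infarcts and 1.58 ± 0.295% in contralateral cortices. The share of *Lifr* was 4.44 ± 0.555% against 24.6 ± 2.46%, and that of *Cntfr* was 4.87 ± 1.52% against 26.9 ± 4.39%. For these 4 genes no infarct share lay within the contralateral range. Those of *Il6ra* (6.75 ± 1.29% against 4.60 ± 1.37%) and *Il11ra1* (6.36 ± 1.36% against 4.81 ± 1.37%) overlapped between regions. Shares within a library add up to a whole, so a larger share of *Il6st* lowers the others.

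The ratio of *Osmr* to *Lifr* within a library, which no scaling between libraries can move, reversed. Counts per kilobase of *Osmr* were 2.11, 1.55 and 1.63 times those of *Lifr* in infarcts 1, 2 and 3. In contralateral cortices 1, 2 and 3 the ratio was 0.0571, 0.0698 and 0.0656. *Osmr* was above *Lifr* in 3 of 3 infarcts and below it in 3 of 3 contralateral cortices. The mean log2 ratio was 0.81 ± 0.24 in infarcts and -3.97 ± 0.15 in contralateral cortices (SD, n = 3 each), a 27.3-fold difference with an exact two-sided permutation *p* of 0.1, the smallest that 3 against 3 libraries can give. The ratio of *Il6ra* to *Il6st* was 0.0778, 0.116 and 0.103 in infarcts and 0.143, 0.144 and 0.0822 in contralateral cortices, and here the regions overlapped. The difference of the log2 ratio was -0.29 (exact two-sided permutation *p* = 0.5; n = 3 each; 2 ratios were compared, and neither design can pass an adjusted *p* of 0.05).

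**Figure D3:**
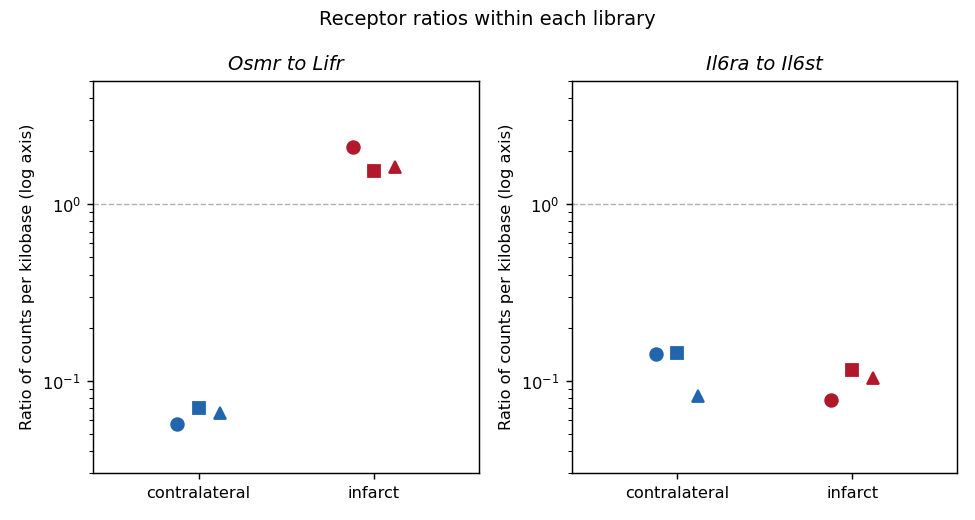
Ratios of counts per kilobase within each library on a log axis, for *Osmr* to *Lifr* and for *Il6ra* to *Il6st*, in contralateral (blue) and infarct (red) libraries. Symbols are replicates 1 (circle), 2 (square) and 3 (triangle), and the dashed line marks equal levels. The ratio of *Osmr* to *Lifr* lies at 0.0571 to 0.0698 in contralateral cortices and at 1.55 to 2.11 in infarcts, and the ratio of *Il6ra* to *Il6st* overlaps between regions.

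Among the 10 genes ordered by level per kilobase, *Il6st* led in infarcts with 102 CPM per kilobase, followed by *Osmr* (11.5), *Socs3* (10.5), *Il6ra* (9.94) and *Il11ra1* (9.29), whose neighbors in that order overlapped. *Lifr* came next with 6.53 CPM per kilobase, apart from the genes on either side. The ligands *Clcf1* (0.801), *Osm* (0.645) and *Lif* (0.531) overlapped with their neighbors, and *Il6* was last with 0.0515 CPM per kilobase. In contralateral cortices *Lifr* was second of the 10 with 9.94 CPM per kilobase after *Il6st* with 15.1. *Il11ra1* (1.94) and *Il6ra* (1.85) overlapped, *Socs3* (0.963) and *Osmr* (0.641) stood apart from each other, and *Lif* (0.146) overlapped with *Clcf1* (0.103). The length used is that of all annotated exons, which overstates the length of the transcripts in use by an amount that differs between genes.

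*Socs3*, the feedback inhibitor of gp130 signaling, rose in infarcts (ENSMUSG00000053113, chr11:117966079-117970047, minus strand). It was at 35.5, 24.9 and 30.9 CPM in infarcts 1, 2 and 3 and at 3.02, 2.47 and 2.86 CPM in contralateral cortices 1, 2 and 3. The contralateral cortices were nearly level, and the lowest infarct was well above them. The fitted difference was 10.9-fold (log2 fold change 3.44 ± 0.20 SE; 95% interval 2.99 to 3.90; adjusted *p* = 8.70e-07, edgeR's quasi-likelihood test).

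Since *Socs3* is a target of STAT3, the promoters of the family were read for the letters that STAT proteins bind. RefSeq promoter sequence on GRCm38.p6 was found for 8 of the 10 genes (not for *Osm* and *Clcf1*), and the 250 bases before each start were searched for TTCNNNGAA, which reads the same on both strands. These letters occur in 7.02% of 32851 promoter windows of that length, and the narrower TTCCNGGAA, which is a special case of the first, in 0.913%. *Socs3* was the 1 gene of the 8 with a match to TTCNNNGAA, which begins 154 bases before the RefSeq start, and no promoter of the 8 held TTCCNGGAA. The sequences below are shown to set the *Socs3* promoter beside those of the shared receptor, of the receptor that was lower in infarcts and of the ligand that was barely detected. They run 5′ to 3′ on the strand of the gene and stop short of the first base of the window that GENCODE places in an exon, with the match in capitals. For *Socs3* and *Lifr*, GENCODE also lists transcripts that start farther upstream, so these stretches lie inside the gene spans given above, between annotated exons. They cover chr11:117969452-117969616 on the minus strand for *Socs3*, and on the plus strand chr13:112463820-112464069 for *Il6st*, chr15:7129322-7129558 for *Lifr* (the first of its listed starts) and chr5:30012864-30013113 for *Il6*.
Socs3: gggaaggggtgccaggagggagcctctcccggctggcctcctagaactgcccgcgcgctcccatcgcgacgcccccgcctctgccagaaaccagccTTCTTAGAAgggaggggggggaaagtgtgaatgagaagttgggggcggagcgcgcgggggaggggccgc
Il6st: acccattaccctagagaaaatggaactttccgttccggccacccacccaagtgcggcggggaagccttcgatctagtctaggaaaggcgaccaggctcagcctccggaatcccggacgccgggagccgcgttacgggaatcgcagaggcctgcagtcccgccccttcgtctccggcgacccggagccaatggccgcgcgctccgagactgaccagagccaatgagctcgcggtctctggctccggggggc
Lifr: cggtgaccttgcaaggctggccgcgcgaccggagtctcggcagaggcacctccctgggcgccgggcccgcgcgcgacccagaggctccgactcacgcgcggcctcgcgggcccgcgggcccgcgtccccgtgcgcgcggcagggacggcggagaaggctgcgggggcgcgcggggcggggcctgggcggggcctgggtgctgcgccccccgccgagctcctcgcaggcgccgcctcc
Il6: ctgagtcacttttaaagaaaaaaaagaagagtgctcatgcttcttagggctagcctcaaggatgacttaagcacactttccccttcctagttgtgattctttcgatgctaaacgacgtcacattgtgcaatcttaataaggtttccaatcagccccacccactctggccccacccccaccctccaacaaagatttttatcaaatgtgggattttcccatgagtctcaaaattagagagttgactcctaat
The *Socs3*, *Il6st* and *Lifr* windows were rich in G and C (71.6%, 66.0% and 82.4% of the 250 bases), and that of *Il6* was not (42.8%), where the median promoter had 52.4%. The window of the other listed *Lifr* start, which is not shown, had 50.8%. A match is a run of letters and not a measured site, and the absence of one in this window says nothing of sites elsewhere.

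Other genes of the family were tabulated from a list, with 3 of 4 further receptor genes high enough to be tested. *Il27ra*, a receptor of interleukin-27 on lymphocytes, had 120, 85 and 61 counts in infarcts and 5, 0 and 2 in contralateral cortices (log2 fold change 5.36; adjusted *p* = 5.24e-05, edgeR's quasi-likelihood test). *Il31ra*, the receptor of interleukin-31, had 29, 44 and 18 counts against 8, 4 and 1 (log2 fold change 2.98; adjusted *p* = 1.26e-03, same test). *Cntfr* had 318, 177 and 322 counts against 559, 387 and 399, its scaled levels overlapped between regions, and it was not called (log2 fold change -0.60; adjusted *p* = 0.065, same test). Among further ligands, *Ctf1*, which encodes cardiotrophin, rose from 2, 4 and 3 counts in contralateral cortices to 13, 25 and 18 counts in infarcts (log2 fold change 2.71; adjusted *p* = 1.66e-03, same test). *Il27ra*, *Il31ra* and *Ctf1* were likewise tested only because of their infarct counts. *Il11* had at most 6 counts in any library, *Ctf2* and *Il27* were as scarce, *Ebi3* had 14, 8 and 4 counts against 2, 0 and 2 and was called higher when no filter was used, and *Cntf* and *Il31* were at 0 in all 6 libraries. For *Cntf*, 78.9% of the exon bases also belong to *Zfp91* on the same strand, and reads there are not counted on either gene.

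Downstream of the receptors, 7 of 10 kinases, STAT proteins and adaptors rose and 3 did not pass, with a median log2 fold change of 1.24. Of all tested genes, 25.7% were called higher and 20.9% lower, with a median of 0.03. *Stat3*, the main transcription factor of the pathway, was at 160.3 ± 26.1 CPM in infarcts against 35.3 ± 3.37 CPM in contralateral cortices (SD, n = 3 each; log2 fold change 2.18 ± 0.16 SE; adjusted *p* = 3.05e-06, edgeR's quasi-likelihood test). *Stat5a* (log2 fold change 3.80), *Tyk2* (1.94), *Gab1* (1.40), *Stat5b* (1.07) and *Jak2* (1.04) also rose. Of these, *Stat5a* was tested only because of its infarct counts, which favored a call of higher. *Stat5b* and *Jak2* sat at the edge of the 2-fold rule, and both fell below it without infarct 1 (0.98 and 0.91), as did *Stat5b* without contralateral cortex 2 (0.91) and *Jak2* without contralateral cortex 1 (0.95). *Jak1*, the kinase that gp130 depends on most, had a log2 fold change of 0.66 (adjusted *p* = 5.84e-03, edgeR's quasi-likelihood test), *Grb2* one of 0.36 and *Ptpn11* one of 0.17, and these were not called.

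**Figure D4:**
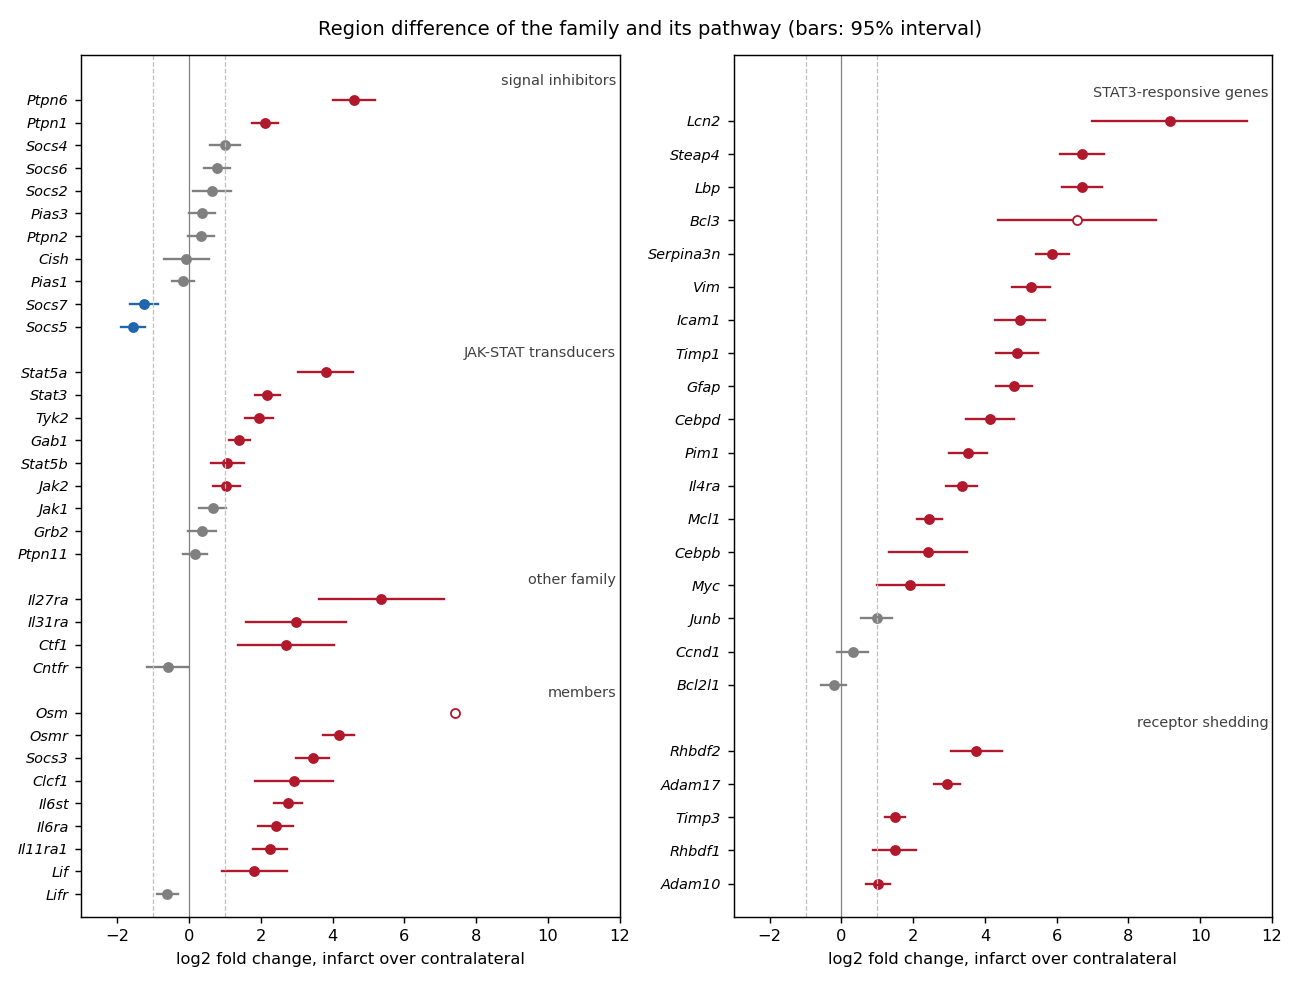
Log2 fold change of infarct over contralateral cortex for tested genes of the family and of the pathway lists, with 95% intervals (n = 3 libraries per region). Red genes were called higher, blue genes lower and grey genes neither. Dashed lines mark a fold change of 2, open circles mark genes with no contralateral library above 3 counts, and *Osm* has no interval because its contralateral counts were all 0. *Socs5* and *Socs7* are the 2 genes called lower, and *Lcn2* has the largest log2 fold change at 9.15.

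The other inhibitors of the pathway were mixed. Of 12 genes, 11 were tested, 2 rose, 2 fell and 7 did not pass, with a median log2 fold change of 0.37. Both counts are near the shares of all tested genes called higher (25.7%) and lower (20.9%). The phosphatase genes *Ptpn6*, which is known from blood cells and encodes SHP-1 (log2 fold change 4.60; adjusted *p* = 8.51e-07, edgeR's quasi-likelihood test), and *Ptpn1* (2.13) rose. *Socs5*, at 82.7 ± 9.40 CPM in infarcts against 243 ± 24.6 CPM in contralateral cortices (SD, n = 3 each), fell with a log2 fold change of -1.55 (adjusted *p* = 1.61e-05, same test), and *Socs7* fell with one of -1.26. *Socs4* (0.99), *Socs6* (0.78) and *Socs2* (0.65) were higher in infarcts by less than 2-fold and were not called, and *Cish* (-0.08), *Pias1* (-0.17), *Pias3* (0.37) and *Ptpn2* (0.34) had smaller differences. *Socs1*, the closest relative of *Socs3* in action, was too scarce to be tested, with 20, 5 and 5 counts against 1, 2 and 2.

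All 5 genes listed for the control of receptor shedding from the cell surface, which releases soluble IL6RA, rose. They do not all act in the same direction, so their count says nothing of the amount of shedding. *Rhbdf2* enters this count but was tested only because of its infarct counts, which favored a call of higher. The share called higher among all tested genes was 25.7%. The protease gene *Adam17* was at 171 ± 27.1 CPM in infarcts against 22.4 ± 1.95 CPM in contralateral cortices (SD, n = 3 each; log2 fold change 2.94; adjusted *p* = 6.14e-07, edgeR's quasi-likelihood test). *Rhbdf2*, whose product carries ADAM17 to the surface, had a log2 fold change of 3.76 and its relative *Rhbdf1* one of 1.48. *Timp3*, an inhibitor of these proteases, had one of 1.50, and 21.3% of its exon bases lie opposite *Syn3*. *Adam10* was at the edge with 1.01 and fell below the 2-fold rule when any of 4 libraries was left out, at its lowest 0.97 without contralateral cortex 1.

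Of 18 genes known to respond to STAT3, 15 rose and 3 did not pass, with a median log2 fold change of 4.47. Several of them also answer to other signals or are made by other cell types, so the list is no measure of STAT3 activity. The list was also chosen with earlier results of these data known. *Lcn2*, *Bcl3*, *Cebpb*, *Cebpd*, *Lbp*, *Steap4* and *Myc* passed the count filter only through infarcts, which favored a call of higher. *Lcn2*, an iron-binding acute phase protein of reactive astrocytes and neutrophils, had 1198, 767 and 2435 counts in infarcts and 1, 5 and 2 in contralateral cortices (log2 fold change 9.15; adjusted *p* = 1.41e-05, edgeR's quasi-likelihood test). The acute phase genes *Lbp* (6.70) and *Serpina3n* (5.88), *Steap4* (6.71), *Icam1* (4.97), *Timp1* (4.90) and the filament genes *Vim* (5.29) and *Gfap* (4.81) rose as well. *Bcl3* was at least 23.9-fold higher. The transcription factor genes *Cebpd* (4.14) and *Cebpb* (2.41), *Pim1* (3.54), *Il4ra* (3.35), the survival gene *Mcl1* (2.45) and *Myc* (1.92) also rose, whereas *Junb* (0.98), *Ccnd1* (0.31) and *Bcl2l1* (-0.22) were not called. Over the other family genes and the 4 pathway lists together, 33 of 49 tested genes rose and 2 fell. For this count and that of the STAT3-responsive genes, the shares over all tested genes were 25.7% higher and 20.9% lower. The 33 include the genes of these lists noted above as tested only because of their infarct counts.

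Markers of immune cells and fibroblasts were higher in the same infarcts. All 8 fibroblast markers rose, from a summed level of 158 to 198 CPM in contralateral cortices to 7116 to 8922 CPM in infarcts. Of 8 macrophage markers 7 rose (53.4 to 67.4 CPM against 5453 to 9029 CPM), and *Cd163* was not called. Most of the macrophage sum in infarcts was *Lyz2* (mean 6438 CPM). Of the T cell markers 7 of 8 were tested and rose (2.56 to 3.51 CPM against 38.7 to 147 CPM), with *Cd3d*, *Cd2* and *Cd8a* at 0 in contralateral cortices. All 6 B cell markers rose (0.325 to 0.829 CPM against 149.9 to 354 CPM). Neutrophil markers were low in both regions (0.104 to 0.921 CPM against 10.2 to 13.9 CPM), 3 of 8 were tested and rose, *Elane* was at 0 in all 6 libraries, and *Ly6g*, *Mpo* and *Retnlg* were at 0 in contralateral cortices. The tested B cell and neutrophil markers, the tested T cell markers other than *Lck*, and the macrophage markers *Ms4a7* and *Ccr2* passed the count filter only through infarcts. That favored a call of higher for them.

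Apart from neurons, whose markers fell as given above, markers of the resident cells had smaller median log2 fold changes. Homeostatic microglia markers rose for 3 of 8 genes (237 to 269 CPM against 498 to 551 CPM) and endothelial markers for 3 of 8 (356 to 404 CPM against 459.5 to 624 CPM). Oligodendrocyte markers rose for 4 of 8 (2288 to 2732 CPM against 4488 to 7236 CPM), with none of these markers at 0. Across all tested genes 25.7% were called higher, and 3 of 8 is not far from that share. Of 8 astrocyte markers, *Aqp4* rose, *Slc1a2* fell and 6 were not called. Their summed level was 13880.0 to 14770.0 CPM in contralateral cortices and 4541 to 6723 CPM in infarcts. Most of it was *Slc1a2* (means of 12280 and 2927 CPM), so the sum mainly follows that gene. Choroid plexus markers were scarce (7.72 to 9.42 CPM against 17.5 to 29.2 CPM; 3 of 5 tested rose, and *Ttr* was at 0 in contralateral cortices), and so were red blood cell markers (0.845 to 4.28 CPM against 8.06 to 30.1 CPM; 2 of 2 tested rose). Those that rose in these 2 lists (*Folr1*, *Clic6*, *Prlr*, *Hba-a1* and *Hbb-bs*) passed the count filter only through infarcts, which favored a call of higher. The part of these cell types in the values of the family was not tested.

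The genes whose pattern over the 6 libraries was nearest to that of each tested gene other than *Osm*, whose contralateral values of 0 would be set by the prior count, were named by the root mean square difference of log2 CPM, centered on each gene's mean and computed with a prior count of 2. *Il6st* was nearest to *Wasf2* (0.045), *Cemip* and *Ston1*, and *Osmr* to *Thbs2* (0.112), *Ggta1* and *Enpp1*. *Il6ra* was nearest to *P3h1* (0.128), *Sbno2* and *Pparg*, *Il11ra1* to *Cd59a* (0.124) and *Stk32a*, and *Lifr* to *Ube2b* (0.034), *Impad1* and *Ccdc186*. *Socs3* was nearest to *Plpp2* (0.094), *Cd82* and *Fam180a*. Among the ligands, *Lif* was nearest to *Col4a4* (0.118) and *Rab13*, and *Clcf1* to *Filip1l* (0.118) and *Slc35d2*. The contralateral counts of *Lif* and *Clcf1* were low, so the prior count also weighs on their values. All of these nearest genes are descriptions only. They cover 2 regions with 3 libraries each, which share the region difference, and carry no test.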

How the data were processed

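Libraries were made with the TruSeq Stranded mRNA kit and sequenced as paired reads. Per the submitters' processing notes and the study's methods, the authors used bcl2fastq 2.19, Trimmomatic 0.32 and STAR 2.5.2b on GRCm38 and deposited raw htseq-count counts per Ensembl gene, without normalization. The version, annotation and strand setting of the counting are not given in the sources used here. In each file, 5 entries that name no gene, which held 26.6 to 34.3% of the tallied reads, were left out. Positions and exon lengths come from GENCODE M21, which held 45229 of 46078 identifiers, and promoters from RefSeq (GRCm38.p6).

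Counts were filtered with filterByExpr and fitted in R 4.3.3 with edgeR 4.0.16 (TMM, robust quasi-likelihood, region as the only term). Alternatives were RLE size factors, library totals, no filter, a minimum of 10 counts in every library, DESeq2 1.42.0, voom of limma 3.58.1, glmTreat, no fold change threshold, the replicate number as a block, and each library left out. The procedure was tested on simulated data. Ratios were tested by exact permutation, with a pseudocount of 0.5 as an alternative. Tables and plots used Python 3.11.15, pandas 2.3.3 and matplotlib 3.10.9.

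The genes of the family, the lists and the tests were chosen with earlier results of these data known. Named genes are the 10 genes, those of the pathway and marker lists, those that share exons or sequence with them and the 3 nearest in pattern. A few genes of these lists are not reported here by name.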

Additional observations from a re-analysis of the deposited data

How the results depend on the processing

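All 8 genes of the family that were called kept their direction and their call under RLE size factors, library totals, no filter, DESeq2, voom, glmTreat, the replicate block and with each of the 6 libraries left out. When each library had to hold at least 10 counts of a gene, 5 were called, since *Osm*, *Lif* and *Clcf1* could then not be tested. Without a fold change threshold, 1 gene of the family was called lower, *Lifr* (log2 fold change -0.61), which kept its sign in all alternatives (-0.67 to -0.40). Under glmTreat, 1 pathway gene instead of 2 was called lower, because *Socs7* missed the call, and *Jak2*, *Stat5b* and *Adam10* missed it too. *Socs4* and *Junb* were called higher when scaled by library totals (log2 fold changes 1.20 and 1.19). The counts of their lists moved in other settings too. In the main fit 2 inhibitors and 15 STAT3-responsive genes were called higher. The first count was 4 with no filter, and 3 with the 10-count minimum or without contralateral cortex 2, infarct 1 or infarct 3. The second was 16 with no filter or without contralateral cortex 2, infarct 1 or infarct 2. With no filter, *Socs1* (log2 fold change 2.66; edgeR adjusted *p* = 0.0125) and *Ebi3* (2.76; edgeR adjusted *p* = 0.0165) were called higher, and DESeq2 gave adjusted *p* values of 0.034 and 0.0389.

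The ratio of *Osmr* to *Lifr* differed by 4.64 to 4.86 on the log2 scale with each library left out, and that of *Il6ra* to *Il6st* by -0.55 to -0.12. With the replicate block, 8 genes of the family and 3945 of all genes were called higher and 3222 lower, against 3999 and 3256 without it. Same-numbered libraries did not deviate together (correlations of -0.19, 0.101 and 0.001 for numbers 1, 2 and 3), so the numbers were not taken to pair the regions. Depth limits the ligands most, with 3 to 56 counts per library for *Lif* and *Clcf1* and 0 to 3 for *Il6*.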
